A study of Mus musculus with 72 samples.

Results

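The interferon-response gene families examined here are the mouse genes named Ifit, Irf, Gbp, Stat, Mx, Oas or Oasl followed by a number, together with Isg15, Isg20, Rsad2, Usp18 and Ifi44. They were chosen by symbol from the protein-coding genes of the count table. The rule itself used no measured value, but the choice was made with earlier results of these data known. The rule found 51 members among 24237 genes, of which 20541 are protein coding: 6 Ifit, 9 Irf, 10 Gbp, 7 Stat, 11 Oas and Oasl genes and the 5 single genes. It also took in 3 genes whose names begin with Irf but that encode binding partners of IRF2, namely Irf2bp1, Irf2bp2 and Irf2bpl. No Mx gene is among the members, since Mx1 and Mx2, like Oas1b and Gbp11, are listed as transcribed pseudogenes in the C57BL/6J reference.

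Ventricles and both atria of adult mouse hearts were sequenced apart as 72 RNA libraries, 3 for each sex, chamber and group. All mice were of strain C57BL/6J. The groups were naïve Ahr+/+ mice, Ahr-/- mice that lack the aryl hydrocarbon receptor in every tissue and had no exposure of their own, and Ahr+/+ mice whose dams were gavaged with low-dose or high-dose TCDD on 3 days of gestation. The naïve dams received corn oil, whereas the Ahr-/- dams were left untreated. Genotype and gavage therefore cannot be told apart where Ahr-/- and naïve mice are compared. The labels give the doses as 100 and 1000 with no unit, which equal 0.1 and 1 μg/kg if they stand for ng/kg, and name TCDD as the treatment of all 72 libraries. They give an age of 9 months where the methods give 10 months. The cell type is labeled as cardiomyocytes, but whole chambers were used. In CPM, counts scaled to the library total, the summed markers of cardiomyocytes lay between 24143 and 83557, those of fibroblasts between 710 and 3033, those of endothelium between 454 and 837 and those of macrophages between 168 and 1214. In such bulk RNA, fewer cells of a type and less RNA per cell cannot be told apart. Each heart gave its 3 chambers, and the labels do not say which libraries share a heart.

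Ahr itself lay at 8.59 to 30.8 CPM in naïve libraries and at 2.00 to 9.23 CPM in Ahr-/- libraries, so the ranges nearly separated. In 17 of 72 libraries the genes went against the label, in 8 by sex-linked genes and in 13 by the atrial myosin light chain Myl4. Of these 17, 12 were among the 24 libraries numbered 49 to 72. The atrial labels were also uncertain between sides: Bmp10, a right atrial gene, was under 20 CPM in 10 of 24 libraries labeled right atrium and over 20 CPM in 5 of 24 labeled left atrium. The 17 libraries are called in doubt. Member calls with both sexes in the fit, and those between chambers, sexes and library numbers, are given with and without them. Levels, scores and correlations include all 72 libraries unless stated.

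Interferons signal through cell-surface receptors and Janus kinases to STAT proteins. After type I interferon, a complex of STAT proteins with IRF9 binds the interferon-stimulated response element of genes such as Isg15, Ifit1 and Rsad2, whereas interferon gamma acts through STAT dimers at gamma-activated sites and strongly induces the Gbp family of GTPases. In heart muscle these genes are best known from viral myocarditis, but a low level of expression is kept up without infection.

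The promoter sequences below are shown because the response element, a feature that the rule did not use, was found in 21 of 40 members and 5 windows with it and 1 without it can be read side by side. RefSeq promoter windows of assembly GRCm38.p6, 250 bases before to 50 after a transcription start, were found for 40 of the 51 members. The response element was searched as GAAANNGAA on both strands, and its matches are in capitals, also where they lie on the other strand. The 250 bases before the start are given 5′ to 3′ in the direction of transcription, at chr4:156200819-156201068 (minus strand) for Isg15, chr19:34640639-34640888 (plus) for Ifit1, chr19:34583279-34583528 (plus) for Ifit3, chr12:26456453-26456702 (minus) for Rsad2 and chr5:120907526-120907775 (minus) for Oas1a. Irf3, at chr7:44997398-44997647 (plus), is shown as a member without a match.
Isg15: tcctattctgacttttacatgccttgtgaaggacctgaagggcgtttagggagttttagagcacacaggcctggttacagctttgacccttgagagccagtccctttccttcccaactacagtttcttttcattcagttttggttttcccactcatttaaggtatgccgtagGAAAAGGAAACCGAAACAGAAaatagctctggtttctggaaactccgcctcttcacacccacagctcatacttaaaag
Ifit1: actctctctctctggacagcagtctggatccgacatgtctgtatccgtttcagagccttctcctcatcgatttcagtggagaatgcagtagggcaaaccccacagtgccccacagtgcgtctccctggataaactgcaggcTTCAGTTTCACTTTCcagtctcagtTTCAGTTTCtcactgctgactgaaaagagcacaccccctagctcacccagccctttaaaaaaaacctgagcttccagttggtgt
Ifit3: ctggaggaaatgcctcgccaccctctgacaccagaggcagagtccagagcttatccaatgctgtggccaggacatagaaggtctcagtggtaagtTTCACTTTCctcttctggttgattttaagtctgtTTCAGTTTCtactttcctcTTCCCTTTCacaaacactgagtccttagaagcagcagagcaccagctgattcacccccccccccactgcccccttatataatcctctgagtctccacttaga
Rsad2: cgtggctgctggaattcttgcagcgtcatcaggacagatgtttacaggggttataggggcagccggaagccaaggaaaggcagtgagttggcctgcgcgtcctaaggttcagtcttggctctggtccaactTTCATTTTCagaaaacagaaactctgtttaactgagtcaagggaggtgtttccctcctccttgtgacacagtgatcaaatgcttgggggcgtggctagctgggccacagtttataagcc
Oas1a: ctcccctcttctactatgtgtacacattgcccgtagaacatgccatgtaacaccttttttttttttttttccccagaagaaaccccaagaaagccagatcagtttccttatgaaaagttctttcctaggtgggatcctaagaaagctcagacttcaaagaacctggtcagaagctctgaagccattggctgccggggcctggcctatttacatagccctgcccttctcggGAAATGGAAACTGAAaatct
Irf3: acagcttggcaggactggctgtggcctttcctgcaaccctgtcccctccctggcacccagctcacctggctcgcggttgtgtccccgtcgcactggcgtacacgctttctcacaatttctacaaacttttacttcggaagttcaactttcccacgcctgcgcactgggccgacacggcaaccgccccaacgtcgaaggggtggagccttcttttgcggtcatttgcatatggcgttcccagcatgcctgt

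A match was present in the windows of 21 of 40 members (52.5%), against 2638 of 27025 genes with a window (9.76%). Of the 13 core members of the type I interferon response with a window, 8 held one (61.5%), whereas Ifit2, Irf7, Irf9, Oasl1 and Oasl2 did not. The 52 windows of members held 39 matches, 17 of which overlap another match, as in the run of Isg15, where matches follow each other in steps. The gamma-activated site, searched as TTCNNNGAA, was in 9 of 40 members (22.5%) and in 2582 of all genes (9.55%), and no match of one motif overlapped a match of the other. Ifit1 and its neighbor Ifit1bl2 are transcribed away from each other and share the same stretch of 3 matches. Single matches of other families, with 10 bases on either side, lay 58 bases before the start of Gbp2, 52 before that of Gbp7 and 221 before that of Stat2, and they are given to show that these letters recur outside the Ifit and Oas genes. These are descriptions of letters in a window, not of binding.
Gbp2: ctcttttagtTTCACTTTCactgtcttaa
Gbp7: tgtgtgcagtTTCAGTTTCagttctccat
Stat2: gcaccctggtTTCAGTTTCctttccctag

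Of the 51 members, 47 passed the filter on low counts in the fit of all 72 libraries. The other four, Oas1d, Oas1e, Oas1f and Oas1h, were at 0 in 41, 35, 56 and 71 libraries. Depending on library size, a count of 0 allows up to 0.104 to 0.253 CPM. By median, 27 members lay over 10 CPM, 17 between 1 and 10 CPM and 7 under 1 CPM, and 44 had a count in every library. Together they took between 0.0619% and 0.168% of a library's counts. Levels below are CPM after scaling by the trimmed mean of M values (TMM), and levels are compared between genes only per kilobase of coding sequence.

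The ligands were at or near 0. Ifna2, Ifna4 and Ifnb1, the type I interferons listed, and the lambda interferons Ifnl2 and Ifnl3 had no count in 72 libraries, and Ifng had none in 52 and at most 0.361 CPM. The receptor chains were all measured, with medians of 39.9 CPM for Ifnar1, 45.3 CPM for Ifnar2, 101 CPM for Ifngr1 and 175 CPM for Ifngr2. The kinase Jak1 had a median of 202 CPM.

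Among the signal carriers, Stat3, which acts after cytokines of the interleukin 6 family, had the highest level per length of all 51 members, a median of 70.4 CPM per kilobase. Its lowest, median and highest library were at 101, 163 and 234 CPM. Stat2, which acts after type I interferon, ranged from 9.02 over a median of 14.4 to 26.2 CPM. Stat4, known from T cells, was lowest of the family with a median of 0.546 CPM. Of the IRF factors, Irf1 was highest per length (22.8 CPM per kilobase), with libraries between 11.1 and 36.0 CPM. Irf9, the DNA-binding partner of STAT2, lay between 10.2 and 31.5 CPM, a 3.08-fold range. Irf7, which interferon itself induces, spread further, from 1.66 to 14.0 CPM around 5.99 CPM, an 8.43-fold range.

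Of the effectors, Gbp2 was highest per length within its family, a median of 24.9 CPM per kilobase, with libraries at 16.3, 44.0 and 95.9 CPM for the lowest, the median and the highest. Gbp2b was lowest, with a median of 0.822 CPM. Ifit2, one of the tetratricopeptide proteins that restrain viral translation, led the Ifit genes per length with 13.1 CPM per kilobase and 8.81 to 46.1 CPM in the libraries. Ifit1, which binds viral RNA ends, lay between 4.67 and 32.3 CPM and Ifit3 between 4.63 and 37.2 CPM. Oasl2 led the oligoadenylate synthetase family, whose active enzymes respond to viral double-stranded RNA, with 10.2 CPM per kilobase and libraries between 5.42 and 35.1 CPM. Oas2 had a median of 7.61 CPM, Oas1a of 3.72 CPM, Oas3 of 1.52 CPM and Oasl1 of 1.39 CPM.

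The single genes differed in how far they spread between libraries. Rsad2, which encodes the antiviral enzyme viperin, ran from 2.42 over 19.0 to 73.4 CPM, a 30.4-fold range. Isg15, the ubiquitin-like modifier, was at 0.611, 4.46 and 9.19 CPM for the lowest, the median and the highest library. Usp18, which removes ISG15 from proteins and dampens receptor signaling, spread from 3.51 to 20.8 CPM, and Ifi44 from 2.83 to 18.5 CPM. The naïve male right atrium library 1 held the lowest value of 8 of the 44 members with a count in every library, and the naïve male ventricle library 33 that of 7.

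**Figure D1:**
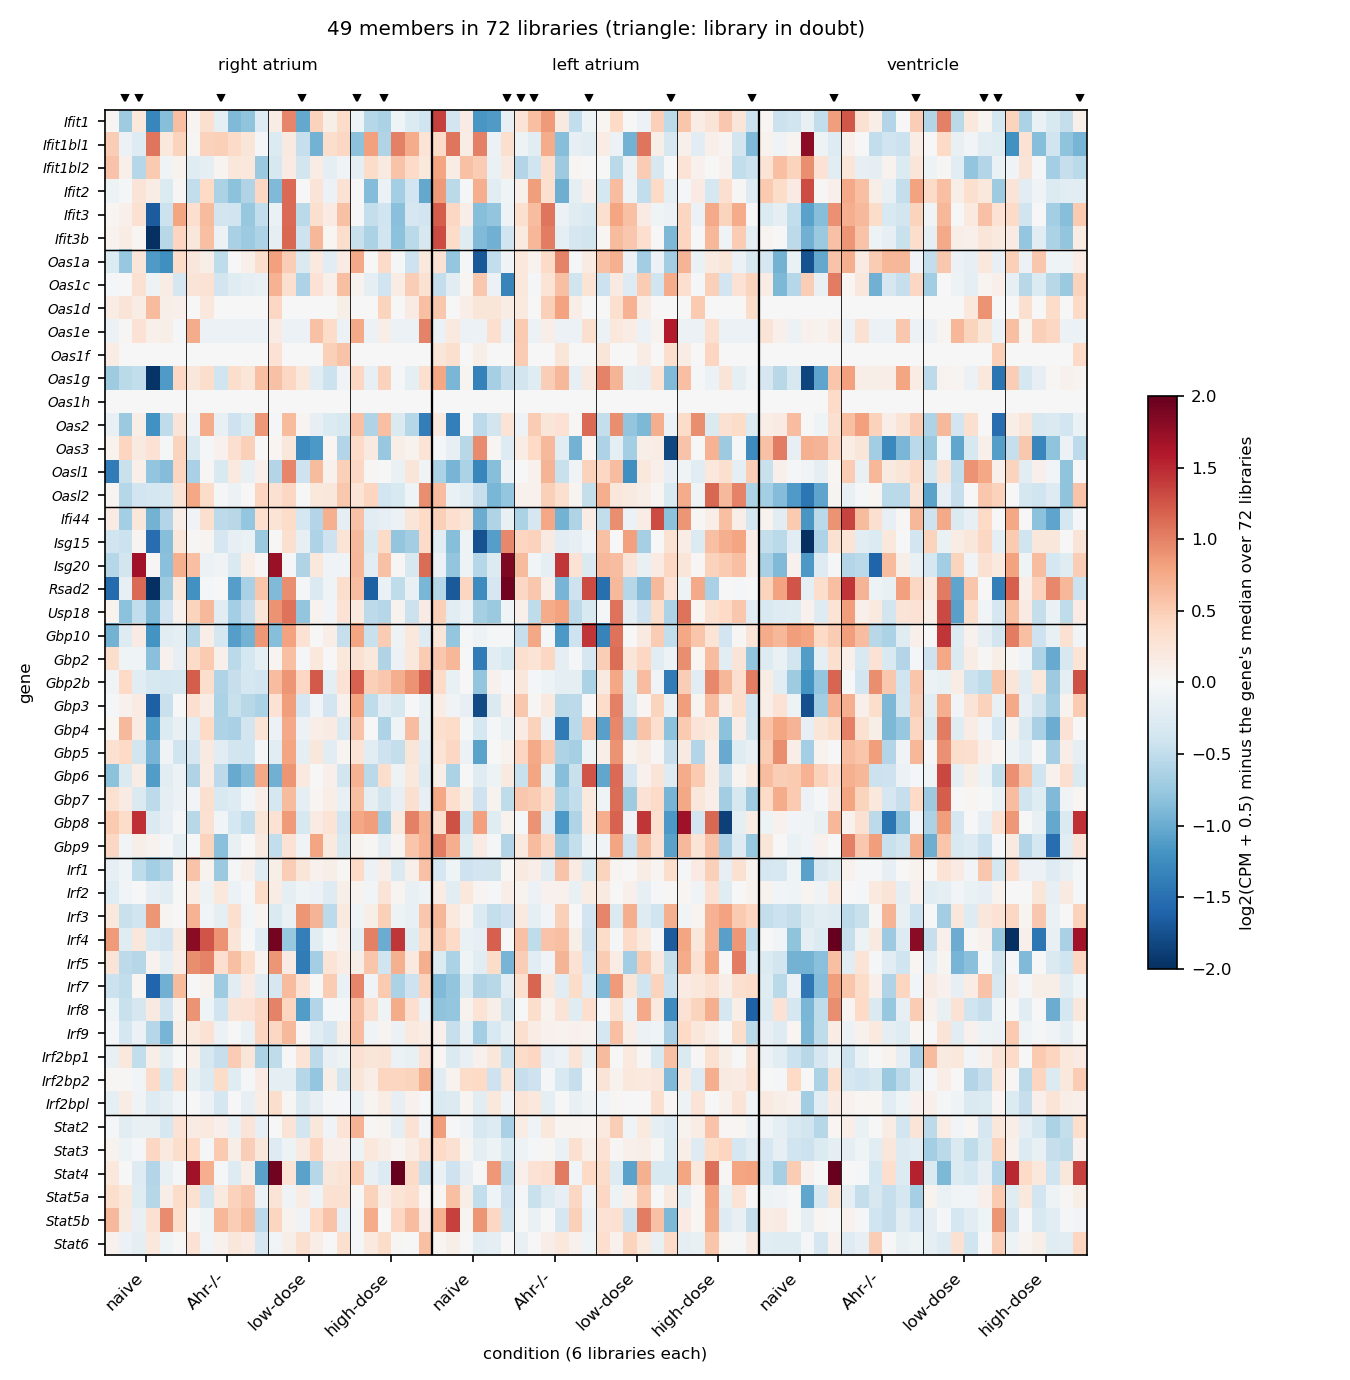
Each row is 1 of 49 members, ordered by family, and each column 1 of 72 libraries, ordered by chamber and then by group with 6 libraries each; color gives log2(CPM + 0.5) minus the gene's median over all libraries, and triangles mark the 17 libraries in doubt. Members of the Gbp family share light and dark columns, while Irf4 and Stat4 vary by their own pattern.

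The members lie close together in the genome. Of the 51, 34 fall into 8 clusters. The 6 Ifit genes lie at chr19:34550550-34662981, 5 Gbp genes at chr3:142496934-142638008 and the other 5 at chr5:105012513-105295871. The Oas genes take up chr5:120730333-120921648, with 9 members, and Oasl2 and Oasl1 are neighbors at chr5:114896926-114937911. Stat6 lies near Stat2, and Stat5b, Stat5a and Stat3 also form a group. Near-identical copies make some counts uncertain, since the handling of reads with several alignments is not given in the sources used here. Of all 50-base windows of coding sequence, the share also found in another gene was 94.4% for Gbp6, 69.4% for Gbp10, 68.5% for both Ifit3 and Ifit3b, 49.3% for Oas1g, 48.3% for Oas1a, 28.8% for Gbp8, 26.3% for Stat5b, 26.0% for Stat5a and 24.1% for Gbp4. Gbp6 and Gbp10 had r = 0.98 across libraries, Ifit3 and Ifit3b r = 0.92 and Oas1a and Oas1g r = 0.80. Ifit3 and Ifit3b, and likewise Oas1a and Oas1g, shared most windows with each other, so their reads may be split within the pair. Gbp6 and Gbp10 shared most windows with Gm43302, which is not a member (94.4% and 63.8%), so their reads may be split with that gene.

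To describe how each exposure or genotype differed from naïve mice, each group was first compared with naïve libraries of the same sex and chamber, 3 against 3, with edgeR's quasi-likelihood test. A member was called at a Benjamini-Hochberg adjusted p under 0.05 over all genes of the fit. In 17 of the 18 comparisons no member was called by edgeR, with 0 to 11 of 45 to 47 tested members at an unadjusted p under 0.05 and a smallest adjusted p of 0.171. Of all genes, 0.0216% were called in Ahr-/- female ventricle and 0% in each of the other 16 of these. The unadjusted counts have no share of all genes beside them here and are not read as a result about the members. DESeq2 called a member in 3 of the 18, the high-dose female ventricle (26.7% of all genes), the Ahr-/- female ventricle (0.405%) and the high-dose male left atrium (0.806%). The same naïve libraries serve all 3 groups of a sex and chamber.

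The exception was the high-dose female ventricle, where 5 of 46 tested members were called, 3 higher and 2 lower. Here 23.7% of all 14006 genes were called, against 10.9% of the members. The median log2 fold change was 0.10 over the members and 0.01 over all genes. None of these 6 libraries was in doubt. The count ranged from 2 calls without naïve library 35 or 36 over 3 without exposed library 43 to 9 without exposed library 44.

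Irf3, the factor that sensors of viral nucleic acid activate, stood at 10.6, 11.0 and 10.6 CPM in naïve female ventricle and at 20.0, 15.5 and 22.0 CPM after high-dose TCDD. All exposed libraries lay above all naïve libraries, with a log2 fold change of 0.88 ± 0.18 (standard error, SE, as for all log2 fold changes below; edgeR adjusted p = 0.00483). Gbp4 went the other way, from 26.7, 31.3 and 29.1 CPM to 19.0, 14.3 and 11.2 CPM. Its ranges did not overlap either, and it fell by 0.92 ± 0.20 (SE) on the log2 scale (edgeR adjusted p = 0.00578). Both kept their call when any of the 6 libraries was left out.

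Oasl2 rose from 9.51, 8.30 and 6.82 CPM to 15.7, 12.1 and 11.7 CPM, by 0.73 ± 0.21 (log2, SE, edgeR adjusted p = 0.0228). Irf2bp1, a binding partner of the repressor IRF2, rose from 14.0, 13.0 and 11.2 CPM to 20.2, 15.3 and 22.3 CPM, by 0.64 ± 0.18 (log2, SE, edgeR adjusted p = 0.0251). Gbp5, a guanylate-binding protein linked to inflammasomes, was at 23.0, 31.3 and 17.8 CPM in naïve and at 15.1, 13.7 and 16.2 CPM in exposed libraries, a log2 fold change of -0.64 ± 0.20 (SE, edgeR adjusted p = 0.0340). In each of these genes the exposed libraries lay wholly on one side of the naïve ones. Of 14 alternative settings for each, the call was lost in 7 for Oasl2, 8 for Irf2bp1 and 6 for Gbp5. In one fit of all 72 libraries none of the 5 passed, with edgeR adjusted p from 0.209 for Irf3 to 0.346 for Oasl2. The summed cardiomyocyte markers moved in the same comparison, from 38931 to 41861 CPM in naïve libraries to 58876 to 76666 CPM in exposed ones. Macrophage markers overlapped, at 209 to 297 and 168 to 318 CPM. The part of the cardiomyocyte RNA in these differences was not tested.

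Outside the members, 7 of 70 tested genes of the pathway lists were called in the same comparison (10.0%), below the share of all genes. Of 9 tested ligands, receptors and kinases, only Jak1 passed (log2 fold change -0.57, edgeR adjusted p = 0.00812), and of 10 negative regulators only Pias1, a SUMO ligase that restrains STATs (-0.49, edgeR adjusted p = 0.0206). None of 15 sensors and adaptors passed in edgeR. Of 36 other interferon-induced genes, 3 rose and 2 fell. Ifi27, one of the genes most responsive to type I interferon, rose (1.18, edgeR adjusted p = 0.00102), whereas Samd9l (-0.997, edgeR adjusted p = 0.00984) and the ISG15 ligase gene Herc6 (-0.90, edgeR adjusted p = 0.0189) fell. The median of this list was -0.12.

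**Figure D2:**
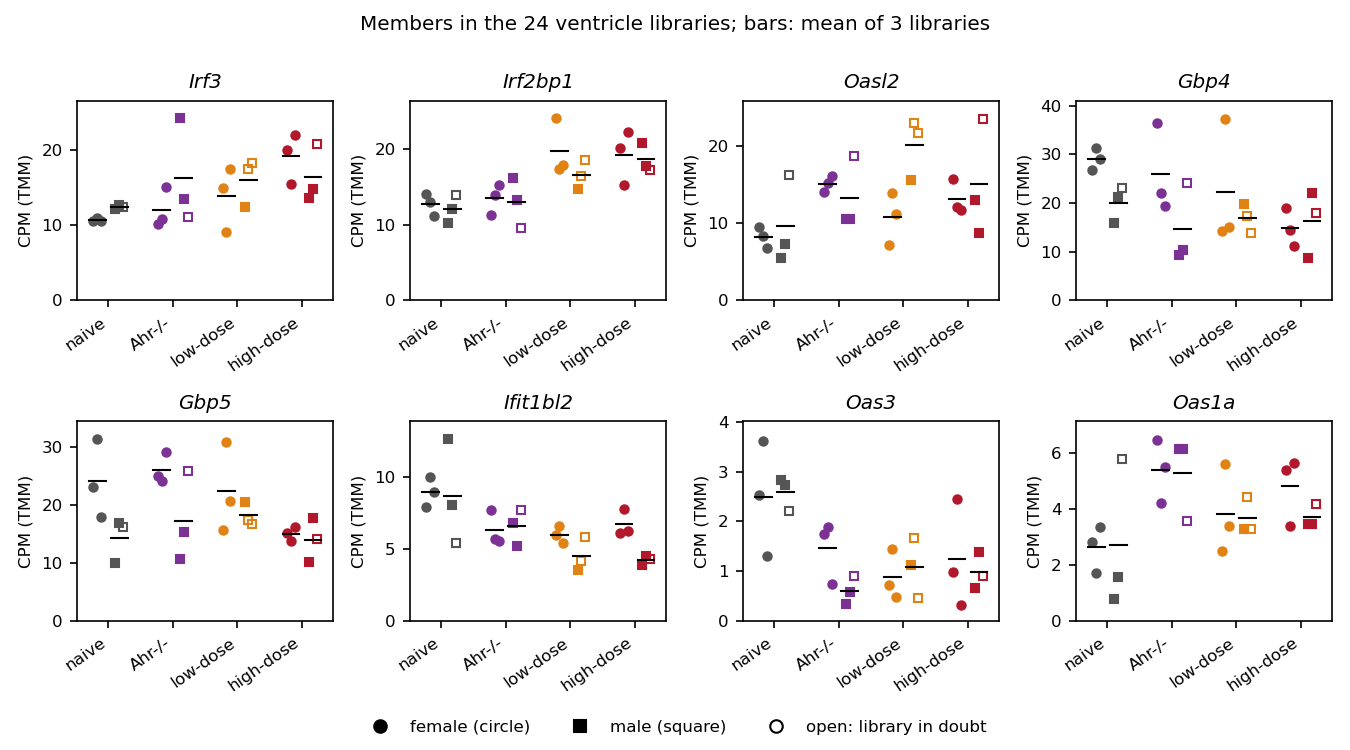
Ventricle levels in CPM (TMM) of the members called in the group comparisons, 1 panel a gene, with 3 female and 3 male libraries for each of naïve, Ahr-/-, high-dose and low-dose mice; open symbols are libraries in doubt. Irf3 lies at 10.6 to 12.8 CPM in all 6 naïve libraries and at 13.6 to 22.0 CPM in the 6 high-dose libraries.

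With both sexes in one fit and sex as a term, 6 libraries against 6, members were called only in ventricle. In the high-dose ventricle 3 of 47 members passed, with 12.5% of all genes called. Irf3 was at 10.6, 11.6 and 12.8 CPM for the lowest, the median and the highest naïve library and at 13.6, 17.8 and 22.0 CPM for the high-dose ones. The ranges did not overlap, and the log2 fold change was 0.63 ± 0.16 (SE, edgeR adjusted p = 0.0246). Irf2bp1 was at 10.2, 12.5 and 14.0 CPM in naïve and at 15.3, 19.0 and 22.3 CPM in high-dose libraries, again without overlap (0.62 ± 0.14, edgeR adjusted p = 0.0169). Ifit1bl2, the Ifit1-like gene that shares its promoter stretch with Ifit1, fell from a median of 8.46 to 5.29 CPM with overlap (-0.71 ± 0.22, edgeR adjusted p = 0.0499).

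In the low-dose ventricle 3 of 46 members passed, and 12.5% of all genes. Irf2bp1 was at 14.8, 17.6 and 24.2 CPM, above every naïve library (0.52 ± 0.14, edgeR adjusted p = 0.0281). Ifit1bl2 had a median of 5.60 CPM (-0.78 ± 0.21, edgeR adjusted p = 0.0308). Oas3, the longest of the synthetases, was at 0.447, 0.916 and 1.66 CPM against 1.30, 2.63 and 3.63 CPM in naïve ventricle (-1.40 ± 0.39, edgeR adjusted p = 0.0324), with overlapping ranges. The cardiomyocyte sum again differed, with medians of 52978 CPM in low-dose, 54492 CPM in high-dose and 40076 CPM in naïve ventricle. Whether it bears on these members was not tested. Without the libraries in doubt the low-dose ventricle had no call, with a smallest edgeR adjusted p of 0.0504, and 5.25% of all genes called. At an unadjusted p under 0.05 stood 10 of 47 members and 25.8% of all genes.

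In the Ahr-/- ventricle no member was called in edgeR, and 0.0339% of all genes were called. An unadjusted edgeR p under 0.05 was reached by 7 of 47 members, beside 12.5% of all genes. DESeq2 called no member either, and 0.174% of all genes. Without the libraries in doubt, 5 against 5, 3 members passed and 0.73% of all genes. Oas1a lay between 4.20 and 6.44 CPM in Ahr-/- and between 0.764 and 3.35 CPM in naïve ventricle, and the ranges did not overlap (1.56 ± 0.32, edgeR adjusted p = 0.0438). Oasl2 lay between 10.5 and 16.1 against 5.42 and 9.51 CPM, also apart (0.86 ± 0.17, edgeR adjusted p = 0.0404). Ifit3 had medians of 20.4 and 11.0 CPM with overlap (0.85 ± 0.15, edgeR adjusted p = 0.0322). The naïve library left out here, 53 in male ventricle, had held 30.1 CPM of Ifit3, against at most 13.8 CPM in the other naïve ventricle libraries.

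The high-dose ventricle without the libraries in doubt had 6 calls, with 24.1% of all genes called. They were Irf3, Irf2bp1 and Ifit1bl2 as before and also Oas1a, part of whose reads Oas1g may share (1.11 ± 0.30, edgeR adjusted p = 0.0166), Oasl2 (0.71 ± 0.18, edgeR adjusted p = 0.0141) and Irf7 (0.68 ± 0.23, edgeR adjusted p = 0.0459). In that fit Oas1a lay between 3.40 and 5.65 CPM, above all naïve libraries, while the ranges of Oasl2 and Irf7 overlapped those of naïve ventricle.

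In the atria no member was called by edgeR with both sexes in the fit. From 5 to 10 of 47 members had an unadjusted p under 0.05, beside 7.63% to 17.6% of all genes. DESeq2 called 1 member in the high-dose left atrium, with 4.85% of all genes, and 1 in the high-dose right atrium, with 0.376%. Of all genes, edgeR called 0.013% in Ahr-/- left atrium, 0.00644% in Ahr-/- right atrium, 0.0722% in high-dose right atrium and 0% in the other three. The medians of the members' log2 fold changes in the 6 atrial comparisons lay between 0.09 in Ahr-/- right atrium and 0.26 in high-dose left atrium, beside -0.003 to 0.04 for all genes. In high-dose right atrium 38 of 47 members lay above 0. Without the libraries in doubt edgeR again called no atrial member, and 2 of 15923 genes in high-dose right atrium alone. The members' medians then lay between 0.11 in Ahr-/- right atrium and 0.36 in high-dose left atrium, beside -0.005 to 0.04 for all genes. From 1 of 48 to 13 of 47 members had an unadjusted p under 0.05, beside 5.99% to 19.5% of all genes. The comparisons share their naïve libraries, so these shifts are not independent of each other.

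Whether the sexes differed in their response was tested with the interaction of sex and group in 9 fits. In edgeR 0 to 4 members had an unadjusted p under 0.05, beside 0.926% to 4.53% of all genes. No member passed in any of the 9 by edgeR or DESeq2, and edgeR called 0% of all genes in each. Irf3 shows the values behind this: in high-dose male ventricle it stood at 13.6, 14.9 and 20.8 CPM, beside 12.1, 12.8 and 12.4 CPM in naïve male ventricle. A difference between the sexes was thus not shown for the genes called in females only. Without the libraries in doubt, the high-dose ventricle gave 1 call, Irf2bpl, a binding partner of IRF2 (-0.94, edgeR adjusted p = 0.0428), which is 2.13% of 47 members, against 8.03% of all genes.

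The level of the whole response in a library was described by an interferon score, the mean log2 CPM of 16 core members. It ran from 2.11 in the naïve male right atrium library 1 over a median of 3.10 to 3.89 in the low-dose female right atrium library 16, a 3.45-fold range on the linear scale. The 5 lowest libraries were all naïve and male, and none was in doubt. Among the 10 highest, 8 were labeled female and 2 were in doubt. By group, the lowest, median and highest scores were 2.11, 2.96 and 3.63 in naïve, 2.85, 3.30 and 3.82 in Ahr-/-, 2.87, 3.09 and 3.70 in high-dose and 2.64, 3.14 and 3.89 in low-dose libraries, all overlapping.

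The mean score was above that of the naïve libraries in all 18 comparisons of one sex and chamber, by 0.02 to 0.54. With all tested members in place of the core it was above in 16, with differences of -0.02 in high-dose male ventricle and -0.001 in low-dose female ventricle. The ranges of the core score overlapped in 17 of them. In Ahr-/- female ventricle they did not, at 3.30, 3.45 and 3.82 against 3.06, 3.10 and 3.15 in naïve female ventricle, although with all tested members they overlapped. In naïve male ventricle the library in doubt, 53, scored 3.63 and the other two 2.53 and 2.78. Since 3 groups share each set of naïve libraries, the 18 differences are not independent, and the score carries no test.

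**Figure D3:**
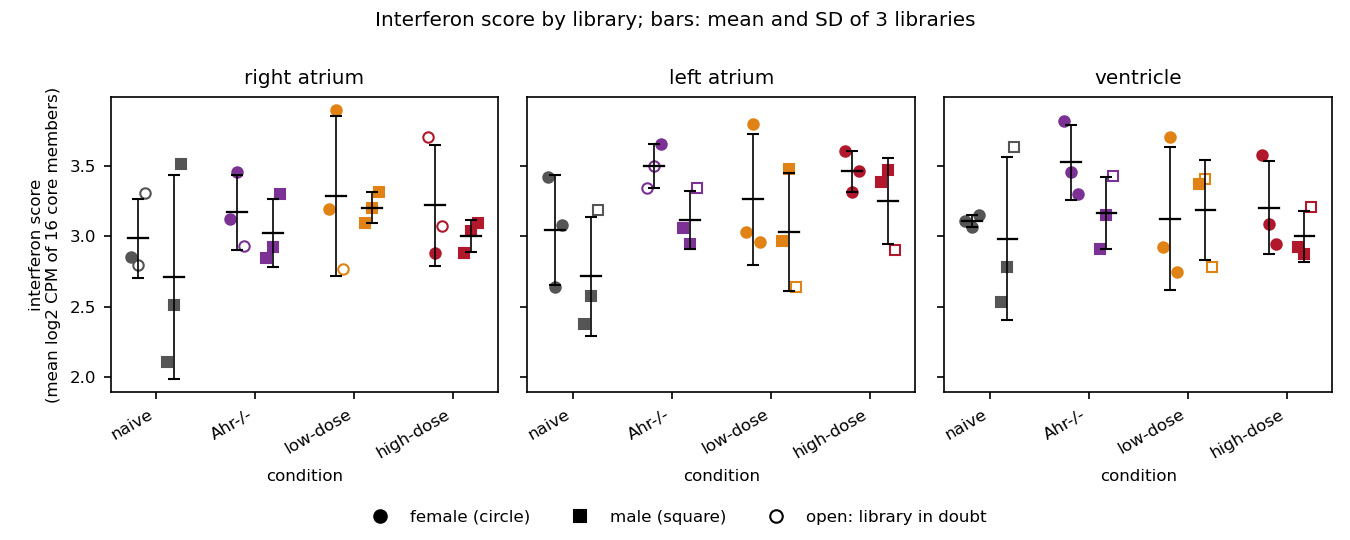
Interferon score (mean log2 CPM of 16 core members) of each of 72 libraries, by chamber, group and sex; black bars give the mean ± SD of 3 libraries and open symbols are libraries in doubt. The lowest library is at 2.11 and the highest at 3.89, and the naïve male libraries hold the 5 lowest values.

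The chambers, with 24 libraries each, were compared in one fit of 72 libraries, averaged over sex and group. In it, libraries of one heart were treated as independent. Between left and right atrium no member was called by edgeR or DESeq2, and edgeR called 0.00599% of all genes. An unadjusted edgeR p under 0.05 was reached by 1 of 47 members, beside 3.20% of all genes. Between ventricle and left atrium 3 of 47 members were called, all lower in ventricle, with 19.4% of all genes. Between ventricle and right atrium 7 of 47 were called, 6 lower and 1 higher, with 29.9% of all genes. The members' shares, 6.38% and 14.9%, were below those of all genes. Member medians were -0.08 and -0.09, beside -0.03 for all genes in both.

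Stat3 had medians of 135 CPM in ventricle, 165 CPM in left atrium and 179 CPM in right atrium. Its differences were small, a log2 fold change of -0.38 ± 0.07 against right atrium (SE, edgeR adjusted p = 5.65e-05) and -0.26 ± 0.07 against left atrium (SE, edgeR adjusted p = 0.00728). Its libraries lay between 101 and 221 CPM in ventricle and between 135 and 234 CPM in right atrium, so the ranges overlapped. Oasl2 was also lower in ventricle, with medians of 12.5, 16.6 and 17.2 CPM in the same order (-0.44 ± 0.13 against right atrium, edgeR adjusted p = 0.00674, and -0.45 ± 0.13 against left atrium, edgeR adjusted p = 0.0115).

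Against right atrium alone, Stat5a (-0.30, edgeR adjusted p = 0.00703) and Stat5b (-0.39, edgeR adjusted p = 0.00929), the STATs of growth hormone and prolactin, and Irf5, a macrophage factor downstream of Toll-like receptors (-0.51, edgeR adjusted p = 0.0172), were lower in ventricle. Rsad2 was the member that was higher there, with medians of 26.2 CPM in ventricle and 16.9 CPM in right atrium (0.66 ± 0.25, edgeR adjusted p = 0.0418). Macrophage markers had medians of 278 CPM in ventricle and 551 CPM in right atrium and fibroblast markers of 1118 and 2237 CPM. The summed globins of blood moved the same way as Rsad2, with medians of 3488 and 2408 CPM. The part of these cells in the differences was not tested.

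Without the libraries in doubt the differences of these named members from right atrium were larger. Then 17 of 48 members were called between ventricle and right atrium, with 46.8% of all genes, and 13 between ventricle and left atrium, with 43.5%. Between the atria edgeR still called none, with 0.00572% of all genes. No member there had an unadjusted p under 0.05, beside 4.11% of all genes. Bmp10 was not used in leaving libraries out, so the side labels of the atria stayed uncertain in this fit. Irf5 had medians of 2.95 CPM in ventricle and 4.54 CPM in right atrium, a log2 fold change of -0.94 ± 0.16 (SE, edgeR adjusted p = 7.41e-06). Oasl2 had medians of 11.2 and 18.7 CPM (-0.77 ± 0.13, edgeR adjusted p = 6.60e-06). Rsad2 had medians of 28.1 and 12.6 CPM (1.20 ± 0.30, edgeR adjusted p = 0.00118). Irf4 (-1.14) and Irf8 (-0.55), factors of lymphoid and myeloid cells, joined the members lower in ventricle. Gbp6 (0.58) and Gbp10 (0.61), named after their values were seen and both with most of their coding sequence shared with other genes, joined Rsad2 on the higher side. In naïve libraries alone, edgeR called no member in either contrast of the ventricle. Of 15507 genes it called 0 against left atrium and 1 against right atrium. At an unadjusted p under 0.05 were 7 and 8 of 47 members, beside 13.0% and 19.4% of all genes.

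**Figure D4:**
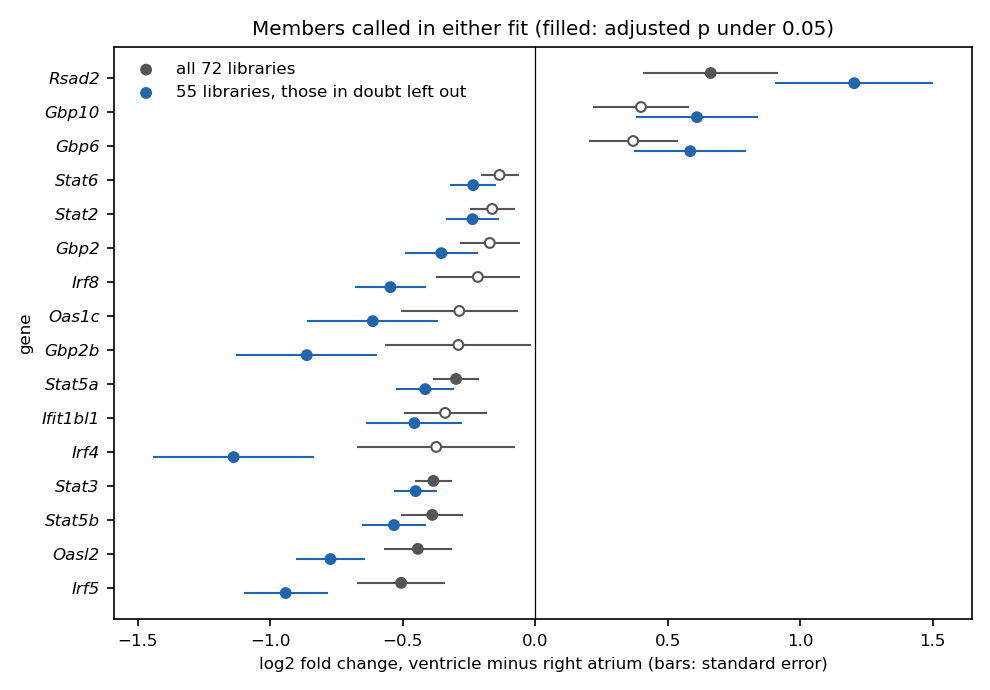
Log2 fold change between ventricle and right atrium of members called with all 72 libraries or with the 55 that were not in doubt; bars are standard errors and filled points have an edgeR adjusted p under 0.05. Irf5 moves from -0.51 to -0.94 and Rsad2 from 0.66 to 1.20 when the libraries in doubt are left out.

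Of the 71 tested genes of the pathway lists, 19 were called between ventricle and right atrium (26.8%), near the 29.9% of all genes. Of 9 tested ligands, receptors and kinases, 2 were higher and 3 lower in ventricle than in right atrium, with Ifngr2, the second chain of the gamma receptor, at 0.64 (edgeR adjusted p = 0.000967). Of 15 sensors and adaptors of viral nucleic acid, 1 was higher and 5 were lower. Of 37 other interferon-induced genes, 1 was higher and 3 were lower. Ifitm3, a membrane protein that blocks virus entry, was among the lower (-0.29, edgeR adjusted p = 0.0330). Of 10 negative regulators 1 was higher and 3 were lower. The regulator on the higher side was Cish (0.48, edgeR adjusted p = 0.00205). Those on the lower side included Socs3 (-0.65, edgeR adjusted p = 0.00200), like Cish a feedback inhibitor of cytokine signaling, and the RNA-editing enzyme Adar (-0.42, edgeR adjusted p = 0.000132).

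Between labeled females and males no member was called by edgeR in left atrium, right atrium or ventricle, where 0.0719%, 0.024% and 0.372% of all genes were called. At an unadjusted p under 0.05 stood 12, 1 and 4 of 47 members, beside 9.73%, 4.04% and 11.8% of all genes. DESeq2 called 1 member in left atrium, with 0.241% of all genes. The nearest in edgeR was Gbp2 in left atrium, with medians of 60.5 CPM in females and 37.8 CPM in males (0.72 ± 0.16, edgeR adjusted p = 0.0505). There 39 of 47 members lay above 0, with a median of 0.20, beside -0.01 over all genes. Without the libraries in doubt edgeR again called no member. Of 17482 genes, it called 18, 13 and 28 in left atrium, right atrium and ventricle. In ventricle 42 of 48 members then lay above 0, with a median of 0.29, against 31 of 47 and 0.10 with all libraries. In left and right atrium 39 and 35 of 48 did. Unadjusted p-values under 0.05 were held by 11, 3 and 11 members, beside 8.75%, 6.90% and 8.27% of all genes. Between libraries numbered 49 to 72 and 1 to 48, 3 members were called, with 5.23% of all genes: Stat6 (0.22), Irf2 (0.16) and Irf2bp2 (0.26). Scaled by library size only, which moved the median of all genes to -0.15, none was higher and 4 were lower. None was called by edgeR without the libraries in doubt, with 1.68% of all genes. There 7 of 48 members stood at an unadjusted p under 0.05, beside 17.6% of all genes.

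Across the 72 libraries, after the mean of each group was taken out, the members varied together to very different degrees. These correlations are descriptions, since libraries share hearts and depth and several members share reads. The median Pearson r was 0.43 over the 120 pairs of core members and 0.19 over all 1081 pairs. Within families it was 0.53 for Gbp, 0.23 for Stat, 0.17 for Oas and Oasl, 0.16 for Ifit and 0.11 for Irf. Gbp genes of the chromosome 3 cluster had a median r of 0.61 with each other, those of the chromosome 5 cluster 0.66, and pairs between the clusters 0.46.

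Ifit1 followed the score of the other core members most closely (r = 0.86). Gbp3 (0.80), Irf9 (0.77), Ifit3 (0.75), Ifi44 (0.75) and Oas1g (0.73) came next. Isg15 (0.45), Ifit2 (0.36) and Oas3 (0.29), also core members, followed it less. At the other end stood Irf3 (-0.46), Irf2bp1 (-0.35) and Stat6 (-0.33). Members with a response element in their promoter window had a median r of 0.47 with the score (n = 21) and those with a window but no match of 0.30 (n = 17), with overlapping ranges. Irf3 and Gbp4, which moved in opposite directions in high-dose female ventricle, had r = -0.62.

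**Figure D5:**
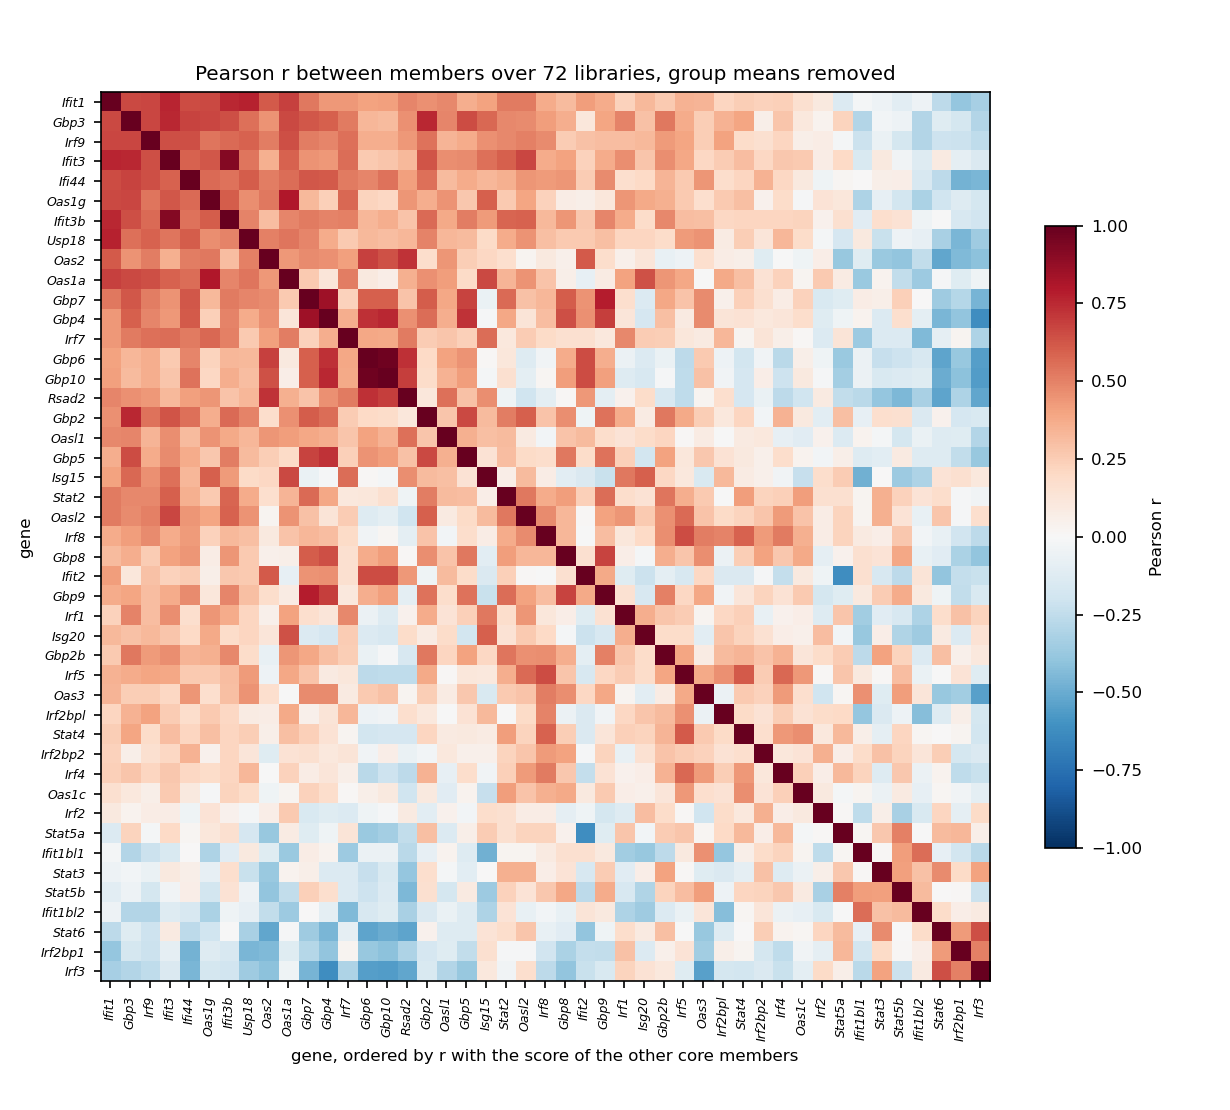
Pearson r between 45 members of the 72-library fit after group means were removed, with genes on both axes in order of their r with the score of the other core members and color from -1 to 1. Ifit1 and Gbp3 stand at one end (0.86 and 0.80 with the score) and Irf3 at the other (-0.46).

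Several members followed markers of a cell type more than the score. Irf5 and Irf8 followed the summed macrophage markers with r = 0.81 and 0.69, Irf4 the B cell markers with 0.74 and Rsad2 the globin transcripts of blood with 0.79. Irf3 followed the cardiomyocyte markers with 0.68, and Oas3 had r = -0.68 with them. The score itself had r = 0.38 with macrophage markers, 0.37 with the globins, -0.32 with cardiomyocyte markers and -0.14 with the total count. The part of cell composition in these values was not tested.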

How the data were processed

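RNA was made into libraries with a poly-A TruSeq kit, which does not mark strand, and sequenced with 50-cycle single reads; the authors used TopHat with the mm10 genome and deposited raw counts of reads on the coding region of each gene, without normalization. Per the submitters' processing notes, CASAVA 1.8 and bcl2fastq made the reads. The annotation release, the use of strand and the treatment of multiply aligned reads are not given in the sources used here. Totals ran from 11873417 to 28789382 counts. Counting error weighs most on members with low counts, and limits given for a count of 0 cover it alone.

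Of 24237 gene identifiers, 24155 were matched to symbols in a RefSeq table of GRCm38.p6; the others held 3.91% of the counts and stayed in the fits. Libraries were grouped by their labels. A library was called in doubt where a female label met over 20 CPM of Y-linked genes, a male label over 20 CPM of Xist, an atrial label under 100 CPM of Myl4 or a ventricle label over 500 CPM. No 2 libraries of a group held the same values within sampling noise. The labels number the libraries but name no animal, so p-values measure the spread between these samples.

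The study tested each sex separately with DESeq at an adjusted threshold of 0.0001; here edgeR 4.0.16 (R 4.3.3, limma 3.58.1; filterByExpr with minimum count 10 and total 15, TMM, robust quasi-likelihood F test) was run at 0.05, with Benjamini-Hochberg adjustment over all genes of a fit. There were 18 comparisons of one sex and chamber, 9 of both sexes, 9 interactions, 3 of chambers, 3 of sexes and 1 of library numbers. Alternatives were DESeq2 1.42.0, RLE normalization, scaling by library size only, no filter, one fit of all libraries, libraries 1 to 48 only, a term for library number, naïve libraries only, the threshold of 0.0001, removal of libraries in doubt and removal of each library in turn. Leaving out the IRF2 binding partners, and the libraries in doubt in the comparison of library numbers, were chosen after seeing the data. Log2 CPM for the score and correlations used a prior count of 2. Python 3.11.15 with pandas 2.3.3, numpy 2.4.6 and matplotlib 3.10.9 made the summaries. The fits were tested on simulated data.

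The members and lists were chosen with earlier results of these data known. Genes named were the core members (genes of the type I response such as Ifit1, Isg15, Rsad2, Irf9, Stat2 and Oas1a), members called in a comparison (at most 10 each), the highest and lowest of each family, the 10 genes most like the score and at most 5 called genes per comparison of the pathway lists. Genes in correlations were named by the size of r. A few genes that these rules would name are not reported here, but they stay in the fits, the counts and the score.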

Additional observations from a re-analysis of the deposited data

Results flagged for a closer look

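In 13 measures, the interferon score and 12 members, the 12 groups of 6 libraries (both sexes of a group and chamber) were searched for a library far from the other five. Of the 156 sets, 9 held one, by Dixon's criterion for 6 values (the gap against the whole range). Chance alone gives about 1 in 20, so the number flagged is near what chance gives. The same libraries enter the sets of all 13 measures, so the sets are not independent. Values are log2 CPM, each with that of the nearest library. In the low-dose ventricle, library 71, which is in doubt because its genes go against its label, stood highest for Stat3 (7.79, nearest 7.05), Stat5a (6.05, nearest 5.62) and Stat5b (7.09, nearest 6.18). All 3 are among the members that were lower in ventricle than in right atrium.

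Oas3 was low in library 69 of low-dose left atrium (-2.53, nearest -0.20) and in library 62 of high-dose right atrium (-0.33, nearest 0.79), both in doubt. The interferon score was high in library 11 of high-dose right atrium (3.70, nearest 3.09), also in doubt. In libraries that were not in doubt, Gbp4 was high in library 48 of low-dose ventricle (5.22, nearest 4.32), Gbp5 low in library 17 of naïve left atrium (2.91, nearest 3.90) and Stat3 high in library 37 of Ahr-/- ventricle (7.57, nearest 7.26). The causes were not tested.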

How the results depend on the processing

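Of 478 alternative counts of members called over 43 comparisons, 440 stayed within 1.5 times the reported count and 38 did not. In 27 comparisons every alternative stayed. The reported count was 0 in 17 of the 18 comparisons of one sex, in 7 of the 9 of both sexes and in every interaction. The total therefore says little about the calls that were made. For 22 calls of single members, 132 of 180 alternatives kept the call, 48 lost it and 0 changed direction. The score differences, of one sex and of both, moved by less than the naïve SD in 52 alternatives and by more in 2, and with all members 2 of the 18 of one sex fell below 0. Without the IRF2 binding partners no count moved by more than that factor. No paired analysis was possible because the library numbers in the labels are unique and name no shared animal.

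In high-dose female ventricle the 5 calls became 3 with libraries 1 to 48 only, 3 by library size only, 0 in one fit of all libraries, 0 at the threshold of 0.0001 and 2 to 9 with a library left out. In high-dose male ventricle, with no call as reported, there was 1 with libraries 1 to 48, 1 without the libraries in doubt and 2 in the one fit. Libraries 1 to 48 alone gave 4 calls in Ahr-/- female left atrium and 2 in low-dose male ventricle. DESeq2 gave 1 in Ahr-/- female ventricle, where leaving out a library gave 0 to 3 (3 without library 39), and 1 in high-dose male left atrium.

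With both sexes, the 3 calls in high-dose ventricle became 5 by DESeq2, 1 by library size only, 6 without the libraries in doubt and 0 at 0.0001, and the 3 in low-dose ventricle became 6, 0 and 0 with libraries 1 to 48, without the libraries in doubt and at 0.0001. Ahr-/- ventricle had 3 without the libraries in doubt. High-dose left atrium had 1 by DESeq2 and 1 with libraries 1 to 48, and high-dose right atrium 1 by DESeq2. The interaction in high-dose ventricle had 1 without the libraries in doubt, the sex comparison of left atrium 1 by DESeq2 and the library number comparison 0 without the libraries in doubt and, by library size only, 4, all lower.

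Ventricle against left atrium had 16 calls by library size only, 13 without the libraries in doubt and 0 both in naïve libraries and at 0.0001. Against right atrium these were 17, 17, 0 and 1. Scaling by library size only moved the median of all genes to -0.18 and -0.23 in these contrasts, and to -0.17 in high-dose female ventricle, and the split of calls there to 0 higher and 16 lower, 0 and 17, and 1 and 2. With both sexes it was 0 and 1 in high-dose and 0 and 2 in low-dose ventricle. The causes were not tested. The high-dose female right atrium could not be fitted without the libraries in doubt. Depth limits the members with low counts most.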

Other observations

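Of 13862 genes outside the members with a mean of at least 1 CPM, the 10 that followed the interferon score most closely had r from 0.70 to 0.81 over the 72 libraries after group means were removed, against a median of 0.02 over all. Cmpk2, the neighbor of Rsad2 that supplies its nucleotide substrate, came first (r = 0.81), followed by Gm8989 (0.77), B2m, the light chain of class I antigen presentation (0.75), and Rtp4 (0.74). The GTPase genes Tgtp2 (0.73) and Tgtp1 (0.72), Phf11d (0.72), Uba7, the activating enzyme of ISG15 (0.71), Gm8979 (0.70) and Slamf9 (0.70) made up the rest. Of these 10, 5 were in the pathway lists. The libraries share hearts and depth, and Tgtp1 and Tgtp2 are close copies whose reads may be split.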
